A study of Homo sapiens with 9 samples.

Results

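The RNA of 9 genes of antigen presentation by major histocompatibility complex (MHC) class I was followed in ES-2, a line derived from a human ovarian cancer. The genes were taken by symbol, with earlier results of these data known, and are 9 of the 32997 genes in the table. They are the class I heavy chains HLA-B, HLA-C and HLA-E, the light chain B2M, the peptide-loading genes TAP1 and TAPBP, and the immunoproteasome subunits PSMB8, PSMB9 and PSMB10. Libraries came in 3 groups of 3. One group overexpressed OTUB2, which encodes a deubiquitinating enzyme, one overexpressed SNX29P2, a pseudogene that derives from SNX29 and is transcribed, and one carried the empty vector. All groups were untreated ES-2 cells in RPMI-1640 with serum. Nothing on the promoter of the constructs, on their delivery or on clones against pools is given in the sources used here. Separate cultures within a group are not stated either, and the p-values below therefore describe the spread among these libraries, which may be purely technical.

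Class I molecules carry short peptides from inside the cell to its surface, where CD8 T cells inspect them. A heavy chain pairs with B2M, and the peptides are cut by the proteasome, pumped into the endoplasmic reticulum by the TAP1 and TAP2 transporter, and fitted to the heavy chain with the help of tapasin, the product of TAPBP. In cells exposed to interferon gamma, PSMB8, PSMB9 and PSMB10 take the places of the constitutive catalytic subunits PSMB5, PSMB6 and PSMB7. Tumour cells often carry little class I on their surface, which shields them from CD8 T cells.

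Values are RPKM, reads per kilobase of summed exon length and per 1000000 reads in genes. Between 38504854 and 48551215 reads per library fell in genes. The transgenes matched their labels, with OTUB2 at 37.6 to 42.6 RPKM in OTUB2 libraries, at 1.05 to 1.58 in SNX29P2 libraries and at 1.04 to 1.31 with the vector. SNX29P2 had 41.0 to 55.1 RPKM in its own libraries and at most 0.0665 elsewhere. Among markers of an epithelial or ovarian tumour cell, KRT7 and KRT18 lay at 101 to 147 RPKM and VIM at 975 to 1145, whereas EPCAM and NAPSA did not exceed 0.0270 RPKM and PAX8 did not exceed 0.421. Of the endothelial markers CDH5 was present at 17.6 to 23.6 RPKM, with PECAM1 and VWF at or below 0.125. COL1A1 was present at 45.5 to 86.0 RPKM, with COL1A2 at or below 0.0168. VIM, an intermediate filament gene of mesenchymal cells, averaged 1029 ± 47.6 RPKM with OTUB2, 1002 ± 15.4 with SNX29P2 and 1131 ± 22.5 with the vector (SD, n = 3), and was below every vector library in both overexpression groups. Its log2 fold changes were -0.14 with OTUB2 (-0.10 without OTUB2 replicate 1) and -0.17 with SNX29P2, with limma adjusted p of 0.707 and 0.502. COL1A1, a collagen gene of fibroblasts, was at -0.28 with OTUB2 (-0.16 without OTUB2 replicate 1) and -0.38 with SNX29P2, with overlap (limma adjusted p = 0.814 and 0.603). The part of such differences in the class I values was not tested.

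One library stood apart before any comparison. OTUB2 replicate 1 held RNA of genes typical of blood cells. The sum of 8 leukocyte markers was 6.68 RPKM there, against 0.208 and 0.374 in the other OTUB2 libraries, 0.268 to 0.281 in SNX29P2 libraries and 0.292 to 0.348 in vector libraries. Of these 8 markers 6 were highest in that library, led by the lysozyme gene LYZ at 4.22 RPKM (at most 0.213 elsewhere) and the pan-leukocyte gene PTPRC at 118 reads (at most 2 elsewhere). The T cell gene CD3E and the cytotoxic granule gene NKG7 had 34 and 36 reads there and 0 in the other 8 libraries, while CD163 and CSF1R were not highest there. Chosen after their values were seen, the haemoglobin gene HBA2 had 34576 reads there and at most 70 elsewhere, and the neutrophil gene FCGR3B had 432 reads and 0. Leukocytes are known to express class I genes strongly. HLA-B and HLA-E had their highest value of the 9 libraries in OTUB2 replicate 1, and B2M and PSMB8 had their lowest there. The part of the blood cell RNA in the class I values was not tested, and fold changes with OTUB2 are given with and without this library. Because RNA was taken from whole cultures, fewer cells expressing a gene and less RNA per cell cannot be told apart.

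**Figure D1:**
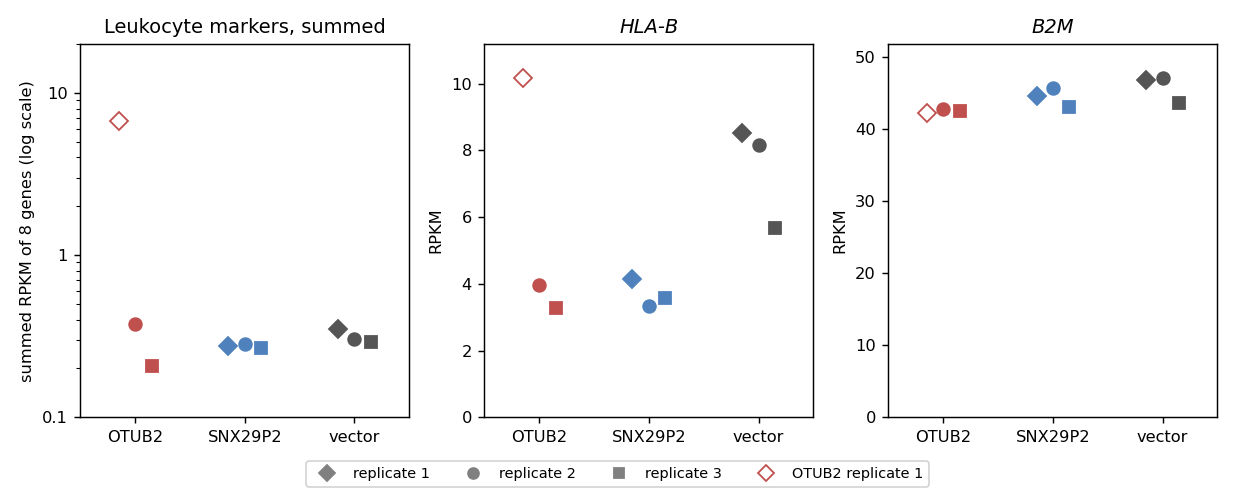
Summed RPKM of 8 leukocyte markers (left, log scale), HLA-B (centre) and B2M (right) in each of the 9 libraries, by group. OTUB2 replicate 1, drawn as an open diamond, was highest for the leukocyte markers at 6.68 and for HLA-B at 10.2 RPKM, and lowest for B2M at 42.1 RPKM.

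Most of the 9 genes lie in the MHC on chromosome 6, given here in GRCh38 with the ends in the deposited table. In order along the chromosome these are HLA-E at chr6:30489467-30494205 on the plus strand, HLA-C at chr6:31268749-31272130 and HLA-B at chr6:31353872-31357188 on the minus strand. PSMB8 (chr6:32840717-32844703, minus), PSMB9 (chr6:32844136-32859585, plus) and TAP1 (chr6:32845209-32853978, minus) form a tight cluster, and TAPBP (chr6:33299694-33314387, minus) lies beyond it. B2M (chr15:44711477-44718877, plus) and PSMB10 (chr16:67934502-67937087, minus) are outside the MHC. Some exons are shared with other genes in the table, and the strand setting of the authors' counting is not given in the sources used here. HLA-B shares 542 bases, 18.0% of its exons, with XXbac-BPG248L24.12 on the opposite strand, and TAP1, PSMB8 and PSMB9 share 456, 425 and 174 bases with PSMB8-AS1. PSMB10 shares 644 of its 1853 exon bases, 34.8%, with CTC-479C5.12 on the same strand. Reads over shared bases cannot be assigned to 1 gene with certainty.

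The promoters are shown for short elements that are known to bind the factors that drive class I genes. Any part of these elements in the differences from the vector was not tested. RefSeq gave the 250 bases before the start of 8 of the 9 genes (GRCh38.p14, 10 windows, 5′ to 3′ on the gene's strand). Capitals mark matches, on either strand, to GAAANNGAA, taken from the interferon regulatory factor element, to GGACTTTCC, taken from an NF-kB element, or to GGGATTCCC, taken from the form of that element in class I promoters. HLA-B lies at chr6:31357180-31357429 (minus), HLA-C at chr6:31272093-31272342 (minus), B2M at chr15:44711267-44711516 (plus), TAP1 at chr6:32853705-32853954 (minus), TAPBP at chr6:33314079-33314328 (minus) and PSMB10 at chr16:67936851-67937100 (minus).
HLA-B: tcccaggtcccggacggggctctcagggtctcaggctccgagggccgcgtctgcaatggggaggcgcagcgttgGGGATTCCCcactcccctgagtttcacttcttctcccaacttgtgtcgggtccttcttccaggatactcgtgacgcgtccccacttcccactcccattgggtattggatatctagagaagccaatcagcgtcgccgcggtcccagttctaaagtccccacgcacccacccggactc
HLA-C: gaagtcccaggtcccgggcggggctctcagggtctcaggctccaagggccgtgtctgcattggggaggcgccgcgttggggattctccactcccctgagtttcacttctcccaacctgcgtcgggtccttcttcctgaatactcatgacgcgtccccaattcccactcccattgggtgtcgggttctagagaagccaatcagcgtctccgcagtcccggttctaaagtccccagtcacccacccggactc
B2M: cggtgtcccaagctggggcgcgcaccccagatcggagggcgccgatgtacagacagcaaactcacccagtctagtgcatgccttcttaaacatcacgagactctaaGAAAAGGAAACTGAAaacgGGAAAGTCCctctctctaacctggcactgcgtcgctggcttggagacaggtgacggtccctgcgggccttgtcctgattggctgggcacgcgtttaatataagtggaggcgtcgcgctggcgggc
TAP1: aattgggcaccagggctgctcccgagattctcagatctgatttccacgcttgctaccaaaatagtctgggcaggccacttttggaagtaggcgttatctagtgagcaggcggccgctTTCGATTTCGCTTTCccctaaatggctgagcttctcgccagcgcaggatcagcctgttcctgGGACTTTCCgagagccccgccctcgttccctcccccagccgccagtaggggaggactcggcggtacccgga
TAPBP: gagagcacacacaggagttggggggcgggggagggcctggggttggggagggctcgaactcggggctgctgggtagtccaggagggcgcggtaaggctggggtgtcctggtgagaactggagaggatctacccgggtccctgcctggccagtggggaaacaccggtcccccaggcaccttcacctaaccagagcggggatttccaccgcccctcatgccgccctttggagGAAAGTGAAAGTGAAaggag
PSMB10: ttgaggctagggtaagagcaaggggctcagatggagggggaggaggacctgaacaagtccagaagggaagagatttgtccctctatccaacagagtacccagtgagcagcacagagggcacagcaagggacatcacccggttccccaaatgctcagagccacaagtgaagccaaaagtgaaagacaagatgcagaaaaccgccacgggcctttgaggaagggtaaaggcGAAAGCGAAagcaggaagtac
GAAANNGAA was found in 4 of the 10 windows of the members, those of B2M, PSMB10, TAP1 and TAPBP, and in 6.88% of the 35116 windows of all genes. The windows of PSMB8 and PSMB9 and another one of TAP1 held no capital match and are not printed. In TAP1, TAPBP and B2M a pair of overlapping GAAANNGAA matches makes up 1 capital run, and the other run in TAP1 and B2M is a single GGACTTTCC match. GGACTTTCC was found in B2M and TAP1 and in 0.333% of all windows, and GGGATTCCC in HLA-B and in 0.362%. CCAAT, the box bound by NF-Y, was in windows of B2M, HLA-B, HLA-C, PSMB9 and TAP1 (32% of all windows), and TGACG, the core of the cAMP response element, in those of B2M, HLA-B, HLA-C, PSMB8 and PSMB9 (21.2%). The HLA-B and HLA-C windows were 89.0% identical when aligned, with 226 identical positions, 20 mismatches and 8 gap positions, yet none of the capital elements was found in HLA-C. A match is a description of letters, and a missing one says only that those letters are not in the window.

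Per kilobase of summed exons, B2M, HLA-E and HLA-C were the most abundant of the 9 RNAs. In vector libraries B2M averaged 45.8 ± 1.94 RPKM, HLA-E 43.9 ± 1.21 and HLA-C 42.6 ± 2.48 (SD, n = 3), and their libraries overlapped. TAPBP at 12.3 ± 0.776 and PSMB8 at 12.0 ± 0.0818 RPKM followed and also overlapped, then HLA-B at 7.45 ± 1.54 and PSMB10 at 6.66 ± 0.313 RPKM, which overlapped too. TAP1 at 4.69 ± 0.378 and PSMB9 at 0.821 ± 0.196 RPKM came last. PSMB9 rested on 62 to 123 reads per library.

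The order depended on the length used. The table divides B2M reads by 6089 bases of summed exons, whereas its longest principal transcript in GENCODE 29 has 1705 bases, and PSMB9 reads by 3072 bases against 782. Per kilobase of that transcript, B2M reached 164 ± 6.94 reads per 1000000 in vector libraries, HLA-C 68.7 ± 4.0 and HLA-E 50.2 ± 1.38 (SD, n = 3). On this scale PSMB8 had 21.4 ± 0.146, HLA-B 14.5 ± 3.00 and PSMB9 3.23 ± 0.770. By mean RPKM over all libraries, B2M, HLA-E and HLA-C ranked within the top 6.74, 6.83 and 8.41% of the 16533 genes tested, and PSMB9 at 92.1%.

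**Figure D2:**
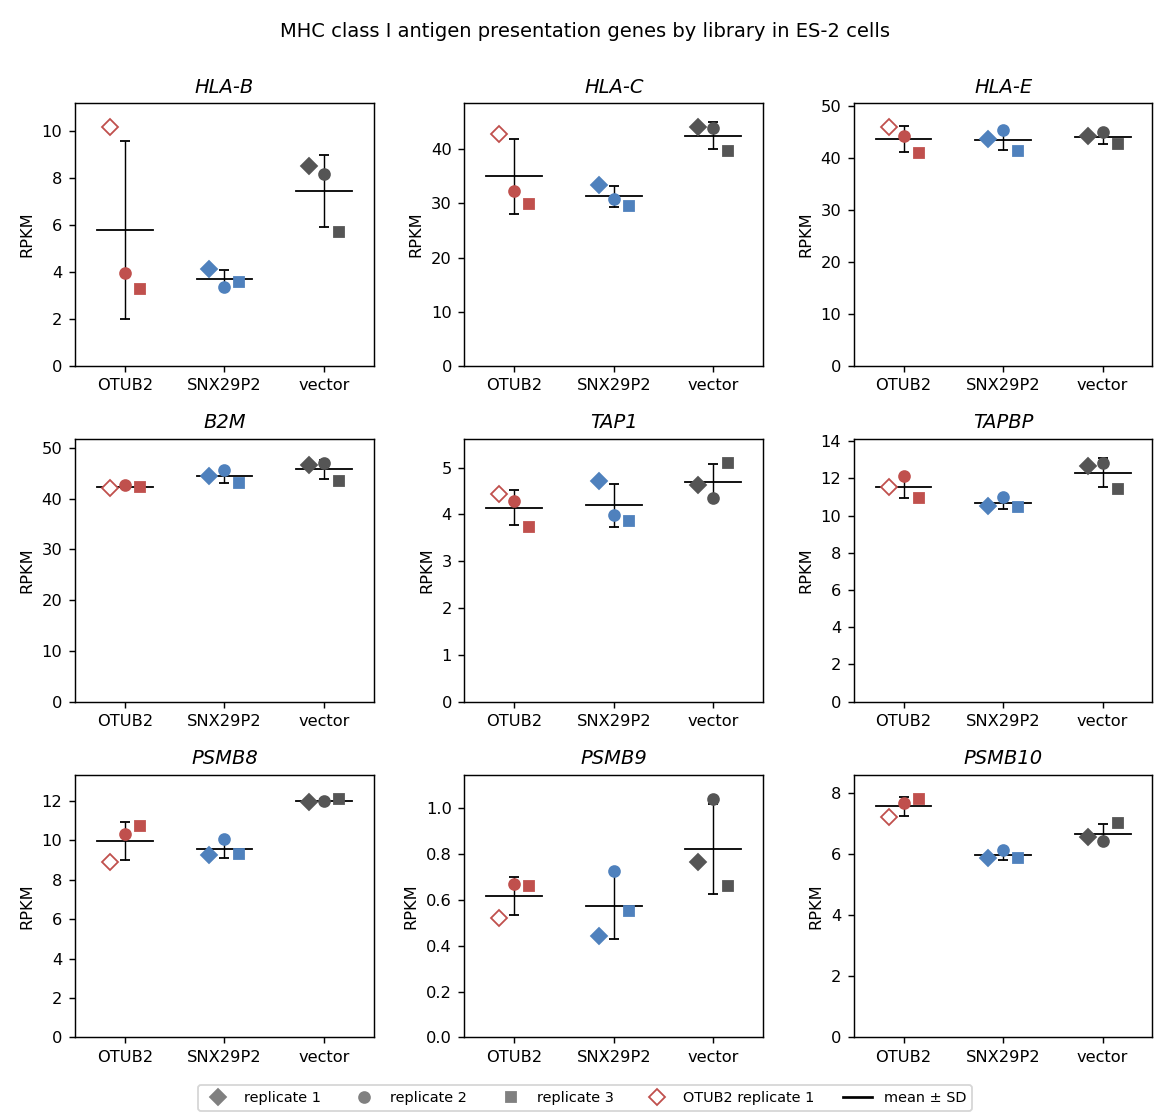
RPKM of each of the 9 class I genes in every library, with the mean and SD of each group of 3. HLA-B, HLA-C and PSMB8 lay lower in SNX29P2 libraries than in every vector library, HLA-E was level in all groups, and PSMB10 was highest in OTUB2 libraries and lowest in SNX29P2 libraries.

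None of the 9 genes passed the test against the vector (limma, adjusted p under 0.05, reached by 0.0181% of all genes tested with OTUB2 and by 0.0363% with SNX29P2), and the differences below are given as values. Of the heavy chains, HLA-B and HLA-C had most of their overexpression libraries below the vector, and HLA-E did not. HLA-B, which presents peptides to CD8 T cells, had 10.2, 3.97 and 3.27 RPKM in OTUB2 libraries, 4.14, 3.35 and 3.57 in SNX29P2 libraries and 8.51, 8.17 and 5.69 in vector libraries. Every SNX29P2 library and OTUB2 replicates 2 and 3 were therefore below every vector library, and OTUB2 replicate 1, the library with leukocyte RNA, was the highest of all 9. The log2 fold change of HLA-B was -0.98 with SNX29P2 (SE 0.354, 95% interval -1.77 to -0.19; limma, Benjamini-Hochberg adjusted p = 0.551), a fitted ratio to the vector of 0.507. With OTUB2 it was -0.52 (SE 0.354, interval -1.31 to 0.28; limma adjusted p = 0.847), and without OTUB2 replicate 1 it was -1.01 (SE 0.184, interval -1.43 to -0.59; limma adjusted p = 0.878). The antisense gene XXbac-BPG248L24.12 averaged 7.06 ± 3.66 RPKM with OTUB2, 4.69 ± 0.812 with SNX29P2 and 9.97 ± 2.48 with the vector (SD, n = 3), the same order as HLA-B, and its part in the HLA-B values was not tested.

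HLA-C, which presents peptides and is also the main ligand of killer immunoglobulin-like receptors, had 42.9, 32.2 and 29.9 RPKM in OTUB2 libraries. It had 33.5, 30.9 and 29.5 RPKM in SNX29P2 libraries and 44.1, 43.9 and 39.7 in vector libraries. As for HLA-B, all SNX29P2 libraries lay below all vector libraries, and within the OTUB2 group only replicate 1 reached the vector's range. HLA-C had a log2 fold change of -0.44 with SNX29P2 (SE 0.122, interval -0.72 to -0.17; limma adjusted p = 0.488) and -0.30 with OTUB2 (interval -0.57 to -0.02; adjusted p = 0.716). When OTUB2 replicate 1 was left out it was -0.45 (SE 0.0838, interval -0.64 to -0.26; limma adjusted p = 0.878). HLA-B as a percentage of HLA-C was 23.7, 12.3 and 10.9% in OTUB2 libraries, 12.4, 10.8 and 12.1% in SNX29P2 libraries and 19.3, 18.6 and 14.3% in vector libraries. HLA-B was thus lower in proportion to HLA-C in all SNX29P2 libraries and in OTUB2 replicates 2 and 3 than in any vector library.

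HLA-E, whose product is recognised by the NKG2A receptor of natural killer cells, was level. It had 45.8, 44.1 and 40.9 RPKM in OTUB2 libraries, 43.6, 45.2 and 41.3 in SNX29P2 libraries and 44.1, 45.0 and 42.6 in vector libraries, so all 3 groups overlapped. In log2 terms HLA-E differed from the vector by -0.01 with OTUB2 (interval -0.15 to 0.13) and -0.02 with SNX29P2 (interval -0.16 to 0.12), with limma adjusted p of 0.989 and 0.970. The OTUB2 value was -0.05 (interval -0.21 to 0.11) when replicate 1 was left out. HLA-C as a percentage of HLA-E was 93.6, 73.1 and 73.3% in OTUB2 libraries, 76.7, 68.3 and 71.4% in SNX29P2 libraries and 99.9, 97.6 and 93.2% in vector libraries. In the reference sequence, 2.12% of the 50-base words of HLA-B, 6.17% of those of HLA-C and 5.13% of those of HLA-E also occur in other genes, mostly other class I genes. The alleles of ES-2 cells were not compared.

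The light chain B2M, which every class I heavy chain needs to fold, lay close to the vector. It had 42.1, 42.7 and 42.4 RPKM in OTUB2 libraries, 44.6, 45.7 and 43.1 in SNX29P2 libraries and 46.8, 47.1 and 43.6 in vector libraries. All OTUB2 libraries lay below every library of the other groups, by a small margin, and SNX29P2 libraries overlapped with the vector. On the log2 scale the difference from the vector was -0.11 with OTUB2 (SE 0.0548, interval -0.23 to 0.01; limma adjusted p = 0.773) and -0.04 with SNX29P2 (interval -0.17 to 0.08; adjusted p = 0.885). Leaving out OTUB2 replicate 1 gave -0.10. The summed RPKM of HLA-B, HLA-C and HLA-E was 235, 188 and 175% of B2M in OTUB2 libraries, 182, 174 and 173% in SNX29P2 libraries and 207, 206 and 202% in vector libraries. By RPKM, the heavy chains were thus lower relative to the light chain in every SNX29P2 library than in any vector library. The same held for OTUB2 replicates 2 and 3. The size of these percentages depends on the length used. RPKM divides B2M reads by 6089 bases, against 1705 in its longest principal transcript. Per kilobase of each gene's longest principal transcript, vector means were 164 for B2M, 14.5 for HLA-B, 68.7 for HLA-C and 50.2 for HLA-E. By these means the summed heavy chains were below B2M in vector libraries.

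Of the peptide-loading genes, TAPBP lay lower with SNX29P2, and TAP1 overlapped between the groups. TAPBP had 11.5, 12.1 and 10.9 RPKM in OTUB2 libraries, 10.5, 11.0 and 10.5 in SNX29P2 libraries and 12.7, 12.8 and 11.4 in vector libraries. All SNX29P2 libraries were below the lowest vector library, with a log2 fold change of -0.20 (SE 0.0723, interval -0.37 to -0.04; limma adjusted p = 0.543). With OTUB2 the value was -0.09 (interval -0.25 to 0.07; limma adjusted p = 0.869), and it was the same without OTUB2 replicate 1.

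TAP1 encodes one chain of the peptide transporter. Its RNA stood at 4.43, 4.28 and 3.73 RPKM in OTUB2 libraries, 4.72, 4.0 and 3.87 in SNX29P2 libraries and 4.63, 4.35 and 5.10 in vector libraries. TAP1 differed from the vector by -0.17 on the log2 scale with OTUB2 (SE 0.109, interval -0.42 to 0.07) and -0.16 with SNX29P2 (interval -0.41 to 0.08), with limma adjusted p of 0.824 and 0.744. Without OTUB2 replicate 1 the OTUB2 value was -0.22, and both remaining OTUB2 libraries lay below every vector library.

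Among the immunoproteasome subunits, PSMB8 lay below the vector in both overexpression groups, and PSMB10 lay on opposite sides of it. PSMB8, the inducible replacement of PSMB5, had 8.91, 10.3 and 10.7 RPKM in OTUB2 libraries, 9.28, 10.1 and 9.33 in SNX29P2 libraries and 11.9, 12.0 and 12.1 in vector libraries. Neither overexpression group overlapped with the vector, whose libraries varied by only 0.681% (coefficient of variation). The log2 fold change was -0.27 with OTUB2 (SE 0.0810, interval -0.45 to -0.09; limma adjusted p = 0.638) and -0.33 with SNX29P2 (interval -0.51 to -0.15; limma adjusted p = 0.488). Without OTUB2 replicate 1, which had the lowest PSMB8 of all libraries, the OTUB2 value was -0.19 (interval -0.36 to -0.02; limma adjusted p = 0.962). PSMB8 shares 21.2% of its exon bases with the antisense gene PSMB8-AS1, which averaged 3.16 ± 0.350 RPKM with OTUB2, 2.95 ± 0.491 with SNX29P2 and 3.61 ± 0.193 with the vector (SD, n = 3), and its part was not tested.

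PSMB9, the inducible replacement of PSMB6, was low throughout. It had 0.522, 0.670 and 0.660 RPKM in OTUB2 libraries (68, 100 and 81 reads), 0.440, 0.725 and 0.552 in SNX29P2 libraries (62, 89 and 80 reads) and 0.763, 1.04 and 0.661 in vector libraries (100, 123 and 84 reads). The groups overlapped, with log2 fold changes of -0.35 with OTUB2 (SE 0.246, interval -0.90 to 0.21) and -0.46 with SNX29P2 (interval -1.01 to 0.10), and limma adjusted p of 0.858 and 0.679. Leaving out OTUB2 replicate 1 gave -0.25 (interval -0.88 to 0.39) for PSMB9 with OTUB2. At this depth the intervals span a wide range, and no difference was detectable.

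PSMB10, the inducible replacement of PSMB7, was the 1 member above the vector with OTUB2. It had 7.21, 7.67 and 7.80 RPKM in OTUB2 libraries, 5.87, 6.12 and 5.87 in SNX29P2 libraries and 6.54, 6.42 and 7.01 in vector libraries. The 3 groups did not overlap: every OTUB2 library was above, and every SNX29P2 library below, all vector libraries. The log2 fold change was 0.18 with OTUB2 (SE 0.0707, interval 0.02 to 0.34; limma adjusted p = 0.707) and -0.16 with SNX29P2 (interval -0.32 to 0.00; limma adjusted p = 0.611). The OTUB2 value was 0.21 (interval 0.03 to 0.40) without OTUB2 replicate 1. Set directly against SNX29P2, OTUB2 was higher by 0.34 (SE 0.0707, interval 0.18 to 0.50; unadjusted p = 0.000842, limma Benjamini-Hochberg adjusted p = 1.00). Without OTUB2 replicate 1 that value was 0.37 (interval 0.19 to 0.56). CTC-479C5.12, with which PSMB10 shares exons, had 2.16 to 2.25 RPKM with OTUB2, 1.70 to 1.77 with SNX29P2 and 1.81 to 2.00 with the vector, the same order without overlap, and its part was not tested.

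**Figure D3:**
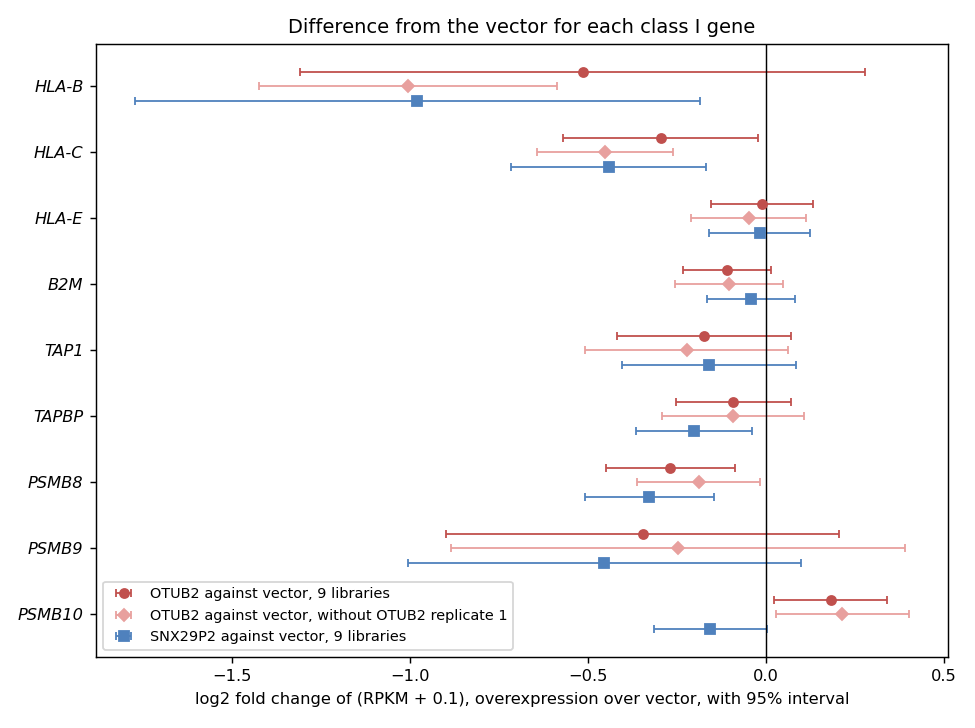
Log2 fold change of log2(RPKM + 0.1) against the vector for each gene, with 95% intervals from limma: OTUB2 with all libraries, OTUB2 without its replicate 1, and SNX29P2. HLA-B with OTUB2 was at -0.52 with all libraries and at -1.01 without replicate 1, beside -0.98 with SNX29P2, and PSMB10 was the 1 gene with an OTUB2 value above 0.

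The inducible subunits were small next to the constitutive ones they replace. PSMB8 was 11.7, 13.0 and 14.0% of PSMB5 in OTUB2 libraries, 12.5, 13.9 and 12.7% in SNX29P2 libraries and 16.5, 18.4 and 14.6% in vector libraries, lower in each overexpression library than in any vector library. PSMB9 was 0.841 ± 0.171% of PSMB6 with OTUB2, 0.818 ± 0.259% with SNX29P2 and 1.2 ± 0.350% with the vector (SD, n = 3), with overlap. PSMB10 was 9.58 ± 0.778% of PSMB7 with OTUB2, 7.86 ± 0.552% with SNX29P2 and 9.14 ± 0.200% with the vector (SD, n = 3). SNX29P2 libraries lay below the others in that ratio, and OTUB2 overlapped with the vector. Within the inducible set, PSMB10 was 81, 74.4 and 72.5% of PSMB8 in OTUB2 libraries, 63.3, 60.8 and 62.9% in SNX29P2 libraries and 54.7, 53.5 and 57.9% in vector libraries, 3 ranges without overlap.

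**Figure D4:**
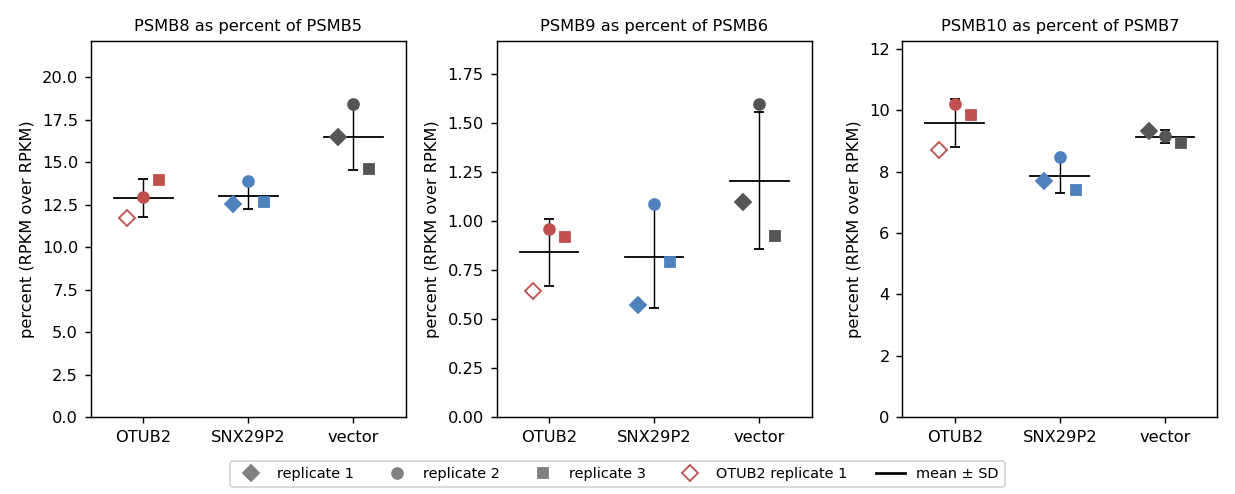
Inducible proteasome subunits as a percentage of the constitutive subunit they replace (ratio of RPKM), in each library, with the mean and SD of each group of 3. PSMB8 over PSMB5 was 11.7 to 14.0% in the overexpression libraries and 14.6 to 18.4% in vector libraries, and PSMB9 over PSMB6 stayed under 1.60%.

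As a set, the 9 genes leaned below the vector in both comparisons, and none passed the test. The list was chosen with earlier results of these data known. The counts below, set beside the shares of all genes, therefore describe this list and are no separate support. With OTUB2, 0 of 9 were called by limma at an adjusted p under 0.05, where 0.0181% of all genes were, and voom on recovered reads also called 0. At an unadjusted p under 0.05 there were 3 of 9 (HLA-C and PSMB8 lower, PSMB10 higher), where 6.73% of all genes were, 3.1% lower and 3.62% higher. Of the 9, 8 had a log2 fold change below 0, where 48.0% of all genes had, and the median was -0.17 beside 0.0067 for all genes tested. The libraries did not overlap for B2M and PSMB8, both lower, and for PSMB10, higher, where 4.91% of all genes were lower and 5.9% higher in this way. Without OTUB2 replicate 1, 0 were called (0.0061% of all genes) and 4 had an unadjusted p under 0.05 (4.85% of all genes). In that fit 5 of 9 lay lower without overlap (8.77% of all genes), namely HLA-B, HLA-C, B2M, TAP1 and PSMB8, PSMB10 was the 1 that lay higher (10.6%), and the median was -0.19.

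With SNX29P2, 0 of 9 were called by limma (0.0363% of all genes) and 0 by voom. At an unadjusted p under 0.05 there were 4, all lower, namely HLA-B, HLA-C, TAPBP and PSMB8, where 8.21% of all genes were at that level, 4.09% lower and 4.13% higher. All 9 had a log2 fold change below 0 (46.4% of all genes), with a median of -0.20 beside 0.014 for all genes tested. HLA-B, HLA-C, TAPBP, PSMB8 and PSMB10 lay lower without overlap, 5 of 9, where 5.53% of all genes did, and 0 lay higher, where 6.13% did. Both comparisons use the same vector libraries, so their values are not independent of each other.

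Set directly against SNX29P2, the OTUB2 group had 0 of 9 called by limma (0.0242% of all genes) and 0 by voom, and PSMB10, higher, was the only one at an unadjusted p under 0.05 (2.43% of all genes, 1.28% higher and 1.15% lower). PSMB10 was also the 1 that lay higher without overlap (4.3% of all genes) and B2M the 1 that lay lower (4.05%), and 2 of 9 had a log2 fold change below 0 (51.4%). The log2 fold change was 0.46 for HLA-B (interval -0.33 to 1.26) and 0.15 for HLA-C (interval -0.13 to 0.42), each with a limma adjusted p of 1.00. With OTUB2 replicate 1 left out these were -0.03 (interval -0.45 to 0.39) and -0.01 (interval -0.20 to 0.18). In that fit 0 of 9 were called (0.0305% of all genes), PSMB10 alone had an unadjusted p under 0.05 (1.98%), PSMB8 and PSMB10 lay higher without overlap (7.82%) and B2M lower (7.98%). The median of the 9 was 0.11 with all libraries and -0.0093 without OTUB2 replicate 1.

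How the genes varied together was described over the 9 libraries, which fall into 3 groups, so that shared group differences enter each value. HLA-B and HLA-C followed each other most closely, with a Pearson r of 0.968 over 9 libraries and 0.985 over the 8 without OTUB2 replicate 1. Of the 36 pairs of members 31 had r above 0, with a median of 0.362 and a range of -0.540 (B2M with PSMB10) to 0.968. HLA-B was also the most variable member, with a highest library 3.11 times the lowest, followed by PSMB9 at 2.36 times. HLA-E and B2M were the steadiest, at 1.12 times each. Averaged over the 9 genes after centring each on its own mean, the log2 level was 0.10, -0.03 and -0.12 in OTUB2 libraries, -0.14, -0.10 and -0.20 in SNX29P2 libraries and 0.19, 0.22 and 0.08 in vector libraries. By this average the vector libraries and OTUB2 replicate 1 were the 4 libraries above 0.

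The genes whose levels followed this average most closely, among 8215 genes of at least 5 RPKM outside the lists used here, were WASH7P (r = 0.951), CKAP4 (0.938), STEAP3 (0.933), AC002310.13 (0.932) and XXbac-BPG248L24.12 (0.932) over the 9 libraries. Over the 8 libraries without OTUB2 replicate 1 the values were 0.95, 0.939, 0.944, 0.978 and 0.953 in that order, and the genes then ranked 33, 43, 41, 3 and 26, so that AC002310.13 alone stayed among the 5 closest. CKAP4 is a membrane protein of the endoplasmic reticulum and STEAP3 a metalloreductase. XXbac-BPG248L24.12 is the gene that shares exon bases with HLA-B.

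Other genes of the class I route were described by lists in which no gene was called in any comparison. PSME1, a subunit of the proteasome activator induced by interferon gamma, lay lower without overlap, at 21.2 ± 1.63 RPKM with OTUB2, 20.4 ± 0.729 with SNX29P2 and 24.5 ± 1.33 with the vector (log2 fold changes -0.21 and -0.26, limma adjusted p = 0.698 and 0.502). PSME1 was at -0.14 with OTUB2 without its replicate 1, still without overlap. In the list of 13 other processing and loading genes 11 were tested, of which 8 lay below 0 with OTUB2 and 6 with SNX29P2, with medians of -0.04 and -0.01. The OTUB2 count rested on replicate 1, since without it 5 of the 11 lay below 0 and the median was 0.0088. TAP2, the partner of TAP1, was at 0.02 with OTUB2 (0.07 without replicate 1) and -0.02 with SNX29P2.

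Genes of the constitutive proteasome lay level with the vector or mostly slightly above it, where PSMB8 and PSMB9 had values below 0. PSMB5, PSMB6, PSMB7 and the assembly factor POMP were all above 0 with OTUB2, at log2 fold changes of 0.08, 0.11, 0.12 and 0.15, and with SNX29P2, at 0.00, 0.04, 0.06 and 0.13. In the fit that left out OTUB2 replicate 1 the OTUB2 values were 0.10, 0.04, 0.09 and 0.13 in the same order, PSMB6 being much closer to the vector. None of the 4 was without overlap against the vector, and their limma adjusted p was at least 0.812 with OTUB2 and 0.771 with SNX29P2. Of the 11 other 20S core subunits 10 were above 0 in each comparison, with medians of 0.15 with OTUB2 and 0.11 with SNX29P2, and without OTUB2 replicate 1 all 11 were above 0 with OTUB2, with a median of 0.16. PSMB2 lay at 0.22 with OTUB2 and 0.17 with SNX29P2 and PSMA4 at 0.21 in both, each without overlap and with limma adjusted p between 0.563 and 0.707. PSMB2 and PSMA4 were both at 0.24 with OTUB2 without replicate 1.

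Regulators of class I transcription lay on both sides of the vector. Of 17 genes of class I transcription and interferon gamma signalling, 8 lay above 0 with OTUB2 and 9 with SNX29P2, with medians of -0.0092 and 0.04. With replicate 1 left out the OTUB2 count was 12 of 17 and the median 0.03. NLRC5, the class I transactivator, named here after its values were seen, averaged 0.864 ± 0.103 RPKM with OTUB2, 0.872 ± 0.0664 with SNX29P2 and 0.916 ± 0.221 with the vector (SD, n = 3), with overlap. IRF1, which binds interferon regulatory factor elements, was at -0.17 with OTUB2 and -0.45 with SNX29P2 (limma adjusted p = 0.908 and 0.568), and RFXANK at 0.00 and -0.12. Leaving out OTUB2 replicate 1 gave -0.21 for IRF1 and 0.03 for RFXANK with OTUB2. EZH2, the catalytic subunit of the polycomb complex PRC2 known to silence class I genes in some tumours, was higher without overlap, at 16.3 ± 0.672 RPKM with OTUB2, 17.1 ± 1.58 with SNX29P2 and 13.7 ± 0.794 with the vector (log2 fold changes 0.25 and 0.31, limma adjusted p = 0.675 and 0.488). Of all genes tested, 5.9% with OTUB2 and 6.13% with SNX29P2 lay higher without overlap. EZH2 and MTF2 are named because they had the smallest p against the vector of the 4 PRC2 genes. MTF2, an accessory subunit of PRC2, was at 0.08 and 0.24, with overlap. The PRC2 subunits EED, at 0.11 and 0.12, and SUZ12, at -0.00076 and 0.14, also overlapped with the vector. EZH2 was at 0.28, MTF2 at 0.15, EED at 0.13 and SUZ12 at 0.09 with OTUB2 without its replicate 1. Any part of PRC2 in the class I values was not tested.

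Interferon-stimulated genes were mixed as a list. Of 25 genes 13 were tested, 6 above 0 with OTUB2 and 5 with SNX29P2, with medians of -0.01 and -0.02. The OTUB2 count was 7 of 13 and the median 0.0026 when replicate 1 was left out. IFITM3, a membrane protein that restricts virus entry, lay lower in all libraries of both groups, at 14.7 ± 1.27 RPKM with OTUB2, 13.7 ± 0.675 with SNX29P2 and 19.0 ± 1.48 with the vector (log2 fold changes -0.37 and -0.46, limma adjusted p = 0.481 and 0.366). IFI6 was at -0.17 with OTUB2 and -0.45 with SNX29P2, without overlap in the SNX29P2 libraries. With OTUB2 but without its replicate 1, IFITM3 was at -0.33 and IFI6 at -0.07.

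**Figure D5:**
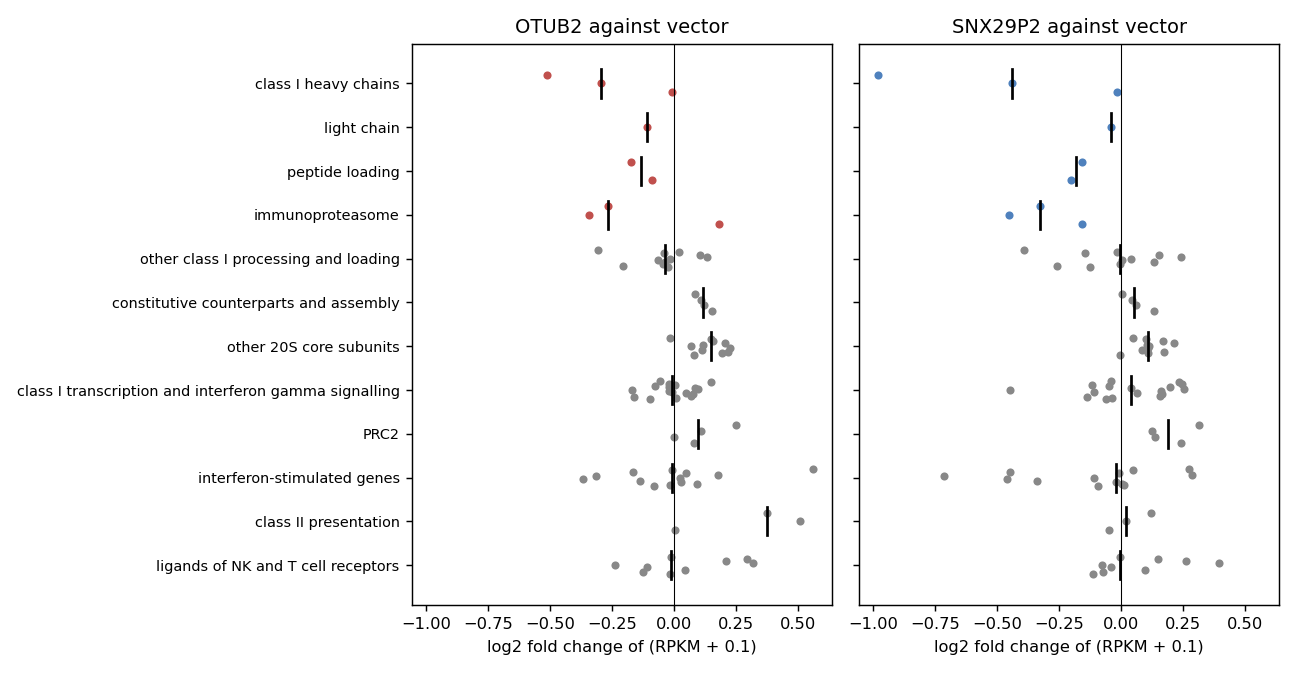
Log2 fold change against the vector of every tested gene, by list, with the list median as a black bar, for OTUB2 (left) and SNX29P2 (right). The 9 class I genes are coloured and fill the upper 4 lists; the constitutive and other core subunits of the proteasome lie mostly above 0.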

How the data were processed

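Total RNA of 9 ES-2 samples was extracted with TRIzol and sequenced. The authors deposited a table of RPKM values with each gene's exons and length, per its header. Positions are in GRCh38 according to the submitters' processing notes. Aligner, counter, strand setting and annotation release: none is given in the sources used here. Values times length added up to 1000000 in each library, and whole reads were recovered from them (100% of values under 1000 reads were whole within 0.05 reads).

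A gene was tested when at least 3 libraries had 0.5 RPKM or more, which held for 16533 genes and all 9 members. The log2(RPKM + 0.1) values of the 9 libraries entered 1 limma fit (limma 3.58.1 in R 4.3.3, trended prior) with a mean for each group and no other covariate. Fold changes refer to that scale and are too small for low genes. P-values were adjusted by Benjamini-Hochberg over all genes tested, with 0.05 as threshold. The median standard error was 0.126, and libraries of the same group correlated at 0.971 to 0.981 across genes. Libraries of different groups correlated as closely, from 0.970 (SNX29P2 replicate 3 with vector replicate 2) to 0.982 (OTUB2 replicate 1 with SNX29P2 replicate 1).

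The members and 12 other lists were chosen with earlier results of these data known. Of 132 list entries, 4 could not be matched and are not analysed here. From each list besides the members the text names any called gene, otherwise the 2 with the smallest p against the vector, and all 4 constitutive counterparts. A gene that this rule names is not reported here. Likeness was Pearson r over libraries to the members' mean centred log2 level. The alternatives changed the pseudocount (1 or 0.01), the filter (none, or 1 RPKM in 6 libraries), the scaling (median of ratios, or quantiles), the variance prior (robust) and the samples (only the compared groups, no libraries numbered 2, or each library left out), or used a replicate block or voom on recovered reads. The programs were tested on simulated data. Python 3.11.15, pandas 2.3.3, numpy 2.4.6, biopython 1.88 and matplotlib 3.10.9 were used.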

Additional observations from a re-analysis of the deposited data

Results flagged for a closer look

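PSMB10 lay on opposite sides of the vector in the overexpression groups, which is what singled it out among the 9 genes. All 3 OTUB2 libraries (7.21, 7.67 and 7.80 RPKM) lay above every vector library (6.54, 6.42 and 7.01 RPKM), and all 3 SNX29P2 libraries (5.87, 6.12 and 5.87 RPKM) lay below. In the direct test of OTUB2 against SNX29P2 the log2 difference was 0.34 (95% interval 0.18 to 0.50; unadjusted p = 0.000842), which failed the correction over all genes (limma, Benjamini-Hochberg adjusted p = 1.00). PSMB10 was singled out by the order of these same libraries, so a difference between the overexpression groups was built into the choice. The p-value of the direct test is therefore no separate support. CTC-479C5.12, which shares 34.8% of the PSMB10 exon bases on the same strand, took the same order as PSMB10, and its part was not tested.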

How the results depend on the processing

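None of the 9 genes was called in any of the 3 comparisons under any of the 20 alternatives, and of 537 values of single genes 523 kept their direction. Under quantile normalization the OTUB2 against SNX29P2 values of HLA-E and TAP1 turned to -0.011 and 0.0025. With a pseudocount of 1 the median of the 9 genes in that comparison was 0.055. With 1 library left out, the median was -0.20 to -0.11 for OTUB2 against vector, -0.26 to -0.18 for SNX29P2 against vector and -0.0093 to 0.13 for OTUB2 against SNX29P2, where 1 to 5 members lay below 0. HLA-E ranged over -0.048 to 0.034 for OTUB2 against vector, -0.048 to 0.017 for SNX29P2 against vector and -0.031 to 0.052 for OTUB2 against SNX29P2. In this last comparison HLA-B ranged over -0.027 to 0.78, HLA-C over -0.0093 to 0.25, TAP1 over -0.069 to 0.071 and PSMB9 over -0.039 to 0.27. For OTUB2 against vector HLA-B ranged over -1.01 to -0.20 and HLA-C over -0.45 to -0.19. The lowest HLA-B and HLA-C values came without OTUB2 replicate 1, the library with leukocyte RNA, and the cause of these shifts was not tested. PSMB9 was not tested under the filter of 1 RPKM in 6 libraries.

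Same-numbered libraries of different groups had correlated deviations of -0.018 to 0.27 over 9 pairs, 7 of them over 0.1. In both other groups, 7 of 9 libraries correlated best with their own number. Because some pairs were not over 0.1, the numbers were not taken to pair the samples. With the replicate number as a block, 0 members were called in each comparison, and over all genes 4, 9 and 4 were called, beside 3, 6 and 4 with no block. The number did carry part of the spread. At an unadjusted limma p under 0.05 there were 1934, 2272 and 778 genes with the block, beside 1112, 1358 and 402 without it.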

Other observations

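Ligands of natural killer and T cell receptors lay on both sides of the vector. Of 11 genes 9 were tested, 4 above 0 in each comparison with the vector, and 5 with OTUB2 without its replicate 1. ULBP3, a ligand of the activating receptor NKG2D, averaged 4.78 ± 0.955 RPKM with OTUB2, 5.05 ± 1.02 with SNX29P2 and 3.79 ± 0.436 with the vector (SD, n = 3), with log2 fold changes of 0.32 and 0.40 (limma adjusted p = 0.788 and 0.602). MICB, another NKG2D ligand, was at 0.29 with OTUB2 and 0.15 with SNX29P2. ULBP3 was at 0.16 and MICB at 0.25 with OTUB2 without its replicate 1.

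Of 10 genes of class II presentation, 3 had enough RNA to be tested. CIITA, the class II transactivator, averaged 0.902 ± 0.0860 RPKM with OTUB2, 0.740 ± 0.0821 with SNX29P2 and 0.676 ± 0.108 with the vector (SD, n = 3). HLA-DPB1 was at 0.51 with OTUB2 and 0.02 with SNX29P2 on the log2 scale (limma adjusted p = 0.814 and 0.992). It passed the filter on low values only with OTUB2 replicate 1, the library with leukocyte RNA, and was not tested without it. CD74 and HLA-DRA had 2.98 and 1.18 RPKM in OTUB2 replicate 1, against at most 0.283 and 0.451 in the other 8 libraries. Those maxima were also in OTUB2 libraries. HLA-DRA had at least 0.235 RPKM in every OTUB2 library, against at most 0.166 with SNX29P2 and 0.162 with the vector. CD74 had at least 0.0906 RPKM with OTUB2, against at most 0.160 with SNX29P2, which overlapped, and 0.0883 with the vector. Both genes were too low to be tested. HLA-F, a nonclassical class I gene, had 0.261 RPKM in OTUB2 replicate 1 and at most 0.0658 elsewhere, while HLA-G did not exceed 0.124 RPKM in any library.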
